A study of Homo sapiens with 32 samples.

Results

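The late repressed genes of LNCaP cells are those whose mRNA had fallen little or had risen after 1 hour of growth factor and was low at 4 hours. They were chosen on group means of TPM, a transcript level scaled for transcript length and library size. A gene had to have a mean of at least 2 TPM in charcoal-stripped serum (CSS), at most 0.55 times that mean after 4 hours of EGF and of NRG-1, and above 0.75 times that mean after 1 hour of each ligand. Of 25498 genes in the table, 11668 had a CSS mean of at least 2 TPM and 220 met every limit. The choice leaves out some gene families by symbol, which removed *BCL2L11*, *KLF15*, *KLK2*, *PIK3CD*, *PIK3R3*, *SESN2*, *ZNF341*, *ZNF462*, *ZNF730*, *ZNF815P*, and *ZNF846*. The remaining 209 genes are described here. Because the CSS, 1-hour, and 4-hour values made the choice, they are given as a description without a test. Tests are given for FBS and the 5-minute groups, for genes outside the 209, and for genes chosen in 1 batch and tested in the other. The difference between the ligands at 4 hours is tested over the 209 as well, with a limit named there.

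LNCaP is an androgen-dependent human prostate cancer cell line. Poly(A) RNA was sequenced in 32 libraries, 4 in each of 8 groups, with 2 of the 4 in each of 2 batches. The FBS group had full fetal bovine serum and no ligand. The CSS group had serum stripped of steroids with charcoal and no ligand, and the other 6 groups had CSS plus 1 ligand at 100 ng/mL, either EGF or NRG-1, with RNA taken at 5 minutes, at 1 hour, and at 4 hours. EGF binds EGFR and NRG-1 binds HER3, and both receptors can pair with HER2. All values describe 1 cell line, and every ligand group shares the CSS medium of its control. The samples are labeled as biological replicates, but nothing says that they were separate cultures, so P values measure the spread between these samples, which may be technical. Replicates 1 and 2 below are batch 1, and replicates 3 and 4 are batch 2.

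As background, growth factor receptors switch on ERK and AKT within minutes. A first wave of transcripts, many of them for transcription factors and for proteins that destabilize mRNA, is followed by a later phase in which transcripts held high in quiescent cells are lost. AKT keeps FOXO transcription factors out of the nucleus, which lowers transcription of their targets. A transcript level can fall no faster than its mRNA decays. None of these steps was measured here.

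Library totals ran from 63822654 to 92401724 counts (median 77866194). The luminal markers *KRT8* (306 to 1743 TPM) and *KRT18* (325 to 1083 TPM) were present in every library. So were the epithelial genes *CDH1* (133 to 354 TPM) and *EPCAM* (119 to 176 TPM). The basal markers *KRT5* and *TP63*, the leukocyte markers *PTPRC* and *CD3E*, and the endothelial marker *PECAM1* were at or below 0.04 TPM in every library. *CD68* (2.24 to 16.2 TPM) and *COL1A1* (1.36 to 5.00 TPM) were measurable, and the basal marker *KRT14* reached 2.17 TPM at its highest. *VWF*, in most tissues an endothelial gene, was itself late repressed, at 2.16 ± 0.33 TPM in CSS (SD, n = 4). In bulk samples, fewer cells of a type and less RNA per cell cannot be told apart.

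The late repressed genes stood near the CSS level at 5 minutes and 1 hour, and most were under 50% of it at 4 hours. Their median was 102% of the CSS mean after 5 minutes of EGF and 105% after 5 minutes of NRG-1, beside 102% and 104% over all 11668 genes with at least 2 TPM in CSS. At 1 hour the median was 97.9% with EGF and 88.5% with NRG-1 (102% and 96.1% over the 11668 genes). At 4 hours it was 44.2% with EGF and 47.5% with NRG-1 (95.1% and 94.4%). Under 50% of CSS were 169 and 140 of the 209 genes, beside 243 and 184 of the 11668. The choice held every member to at most 0.55 times the CSS mean, so these counts follow largely from it. The summed TPM of the 209 genes was 3231 ± 350 in CSS, 3243 ± 326 at 1 hour of EGF, 2944 ± 370 at 1 hour of NRG-1, 1349 ± 77.2 at 4 hours of EGF, and 1449 ± 159 at 4 hours of NRG-1 (SD, n = 4 each). By batch, the median at 4 hours was 39.7% of CSS with EGF and 45.4% with NRG-1 in batch 1, and 48.6% and 50.3% in batch 2. On the TPM scale, all EGF 4-hour libraries lay below all CSS libraries in 203 genes (24.4% of the 11668 did so), all NRG-1 4-hour libraries in 202 (18.2%), and both in 201 (16.8%). The choice used these libraries, and nothing is read from these counts.

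**Figure D1:**
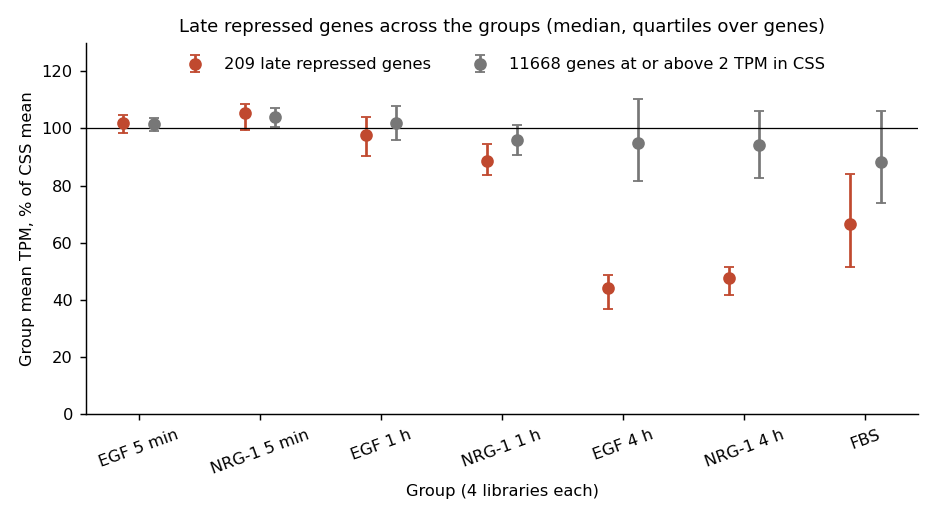
Mean TPM of each group as a percent of the CSS mean, for the 209 late repressed genes and for the 11668 genes with at least 2 TPM in CSS. Points are medians over genes, and bars run from the first to the third quartile. At 4 hours the late repressed genes are low by choice, with medians of 44.2% and 47.5%. In FBS their median was 66.5%, beside 88.3% over the 11668 genes. All percents are relative to CSS, whose libraries also made the choice.

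The limits cut through a continuous range of values. *KIAA0754* was included with a CSS mean of exactly 2 TPM and *DSE* with 2.0025 TPM, and *ACACB* (1.955 TPM) and *PAG1* (1.9425 TPM) fell short. The higher of the 4-hour ratios to CSS was 0.549 for *JAKMIP1* and 0.549 for *PKP2*, inside the limit, and 0.5504 for *CARF* and 0.551 for *LIN52*, outside it. The lower of the 1-hour ratios was 0.752 for *RLN2* and 0.753 for *C15orf52*, inside, and 0.746 for *LOC388692* and 0.732 for *ANKRD20A12P*, outside.

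Some of the 209 rest on weak evidence. The small nucleolar RNA genes *SNORA34* and *SNORD94* had too few counts to be tested, which left 207. *NUDT4P1*, named as a pseudogene by its symbol but matched to the protein-coding *NUDT4B* in GENCODE v44, may share reads with a near-identical copy. Its TPM values spread widely within groups, at 0.98, 3.90, 1.03, and 5.87 in CSS, from 0 to 24.2 at 1 hour of EGF, and 0.05, 0.01, 0.26, and 0.05 at 4 hours of EGF. *HOXC4*, *HOXC5*, and *HOXC6* share exons, so that their separate levels are uncertain. The genes in which a 4-hour library overlapped with a CSS library were *FAXDC2*, *IGFBP3*, *KIAA1328*, *OR7E91P*, *PCDHB11*, *PEG3*, *SNORA34*, and *SNORD94*.

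Relative to CSS, and among genes with at least 5 TPM there, the lowest 4-hour level was that of *RANBP3L*, which codes for a Ran-binding nuclear export factor. Its TPM values were 12.3, 11.2, 8.92, and 10.4 in CSS, 10.3, 11.7, 7.11, and 8.27 at 1 hour of EGF, 1.34, 1.35, 1.31, and 1.44 at 4 hours of EGF, and 1.60, 1.58, 1.47, and 1.97 at 4 hours of NRG-1. Every 4-hour library thus lay far below every CSS library, at means of 12.7% and 15.4% of CSS. In FBS its values were 11.3, 11.8, 9.75, and 8.71 TPM, which overlapped with CSS.

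*PPM1H*, a serine/threonine phosphatase gene, had 25.2, 28.2, 22.6, and 19.0 TPM in CSS, 4.68, 4.63, 7.03, and 5.46 at 4 hours of EGF, and 5.17, 4.86, 6.64, and 4.27 at 4 hours of NRG-1. *KLHL24*, a kelch adaptor of a cullin ubiquitin ligase, had 8.57, 9.27, 12.6, and 12.5 TPM in CSS, 1.18, 1.32, 2.40, and 2.42 at 4 hours of EGF, and 2.06, 2.24, 4.41, and 4.37 at 4 hours of NRG-1. Both genes showed no overlap with CSS, and the *KLHL24* values of batch 2 were above those of batch 1 in CSS and at 4 hours. *TAOK3*, a STE20-like kinase gene, was at 25.6% and 25.3% of its CSS mean of 26.5 TPM at 4 hours of EGF and NRG-1. *DEPTOR*, whose product binds and inhibits mTOR, had 15.0, 16.8, 14.6, and 13.2 TPM in CSS, 3.32, 3.27, 4.27, and 3.87 at 4 hours of EGF, and 3.47, 4.41, 4.41, and 3.56 at 4 hours of NRG-1, again without overlap. The 12 lowest genes also included *TESK2* (a cofilin kinase), *OPRK1*, *TRIM68* (a ubiquitin ligase), *CYTH3* (an ARF exchange factor), *RLN2* (relaxin), *FAM117A*, and *CORO2A* (a coronin), with 4-hour means from 21.8% to 34.8% of CSS.

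The promoters of 4 genes are shown, since they are the sequences from which these transcripts start. Among genes with at least 5 TPM in CSS and a single listed window, these 4 had the lowest 4-hour levels. They are not the 4 lowest of all genes at that TPM limit. *DEPTOR* and *TAOK3* were lower than *TESK2* with both ligands, but *DEPTOR* had no listed window and *TAOK3* had several. Each promoter shown runs from 250 bases before to 50 bases after the start in RefSeq (GRCh38.p14). It reads 5′ to 3′ along the gene. The deposited values were made on hg19, and no coordinate was carried between builds. Capitals mark matches on either strand to the TATA box (TATAAA), the CCAAT box (CCAAT), the E-box (CACGTG), the AP-1 site (TGANTCA), and the GC box (GGGCGG), and no matches overlap here.
*RANBP3L* promoter, chr5:36301853-36302152, minus strand: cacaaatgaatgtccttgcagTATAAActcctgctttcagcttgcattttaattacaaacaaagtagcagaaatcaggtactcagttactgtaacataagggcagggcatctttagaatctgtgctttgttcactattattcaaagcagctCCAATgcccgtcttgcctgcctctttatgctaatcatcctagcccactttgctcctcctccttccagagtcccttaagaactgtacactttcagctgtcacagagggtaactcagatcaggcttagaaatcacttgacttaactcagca
*PPM1H* promoter, chr12:62935101-62935400, minus strand: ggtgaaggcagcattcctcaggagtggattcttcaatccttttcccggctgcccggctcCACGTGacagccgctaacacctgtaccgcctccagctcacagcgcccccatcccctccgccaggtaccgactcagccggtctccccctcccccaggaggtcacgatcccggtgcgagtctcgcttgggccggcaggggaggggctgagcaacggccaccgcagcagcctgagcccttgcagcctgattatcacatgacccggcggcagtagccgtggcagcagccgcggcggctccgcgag
*KLHL24* promoter, chr3:183635373-183635672, plus strand: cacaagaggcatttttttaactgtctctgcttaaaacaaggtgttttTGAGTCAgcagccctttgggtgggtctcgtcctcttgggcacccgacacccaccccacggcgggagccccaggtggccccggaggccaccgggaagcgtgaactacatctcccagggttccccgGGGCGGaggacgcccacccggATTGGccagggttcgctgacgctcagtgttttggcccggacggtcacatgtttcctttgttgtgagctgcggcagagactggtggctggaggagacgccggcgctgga
*TESK2* promoter, chr1:45491114-45491413, minus strand: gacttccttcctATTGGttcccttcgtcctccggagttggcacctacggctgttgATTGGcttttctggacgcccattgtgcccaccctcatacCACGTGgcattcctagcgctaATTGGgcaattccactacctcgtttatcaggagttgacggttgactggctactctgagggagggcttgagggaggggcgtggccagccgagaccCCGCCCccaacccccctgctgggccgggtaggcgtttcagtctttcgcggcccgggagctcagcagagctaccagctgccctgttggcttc
*RANBP3L* holds a TATA box and a CCAAT box, *PPM1H* an E-box, *KLHL24* an AP-1 site, a GC box, and a CCAAT box, and *TESK2* an E-box, a GC box, and 3 CCAAT boxes. Of all 35116 listed windows of this length, 11.5% held the TATA box letters, 34.6% the CCAAT box, 7.26% the E-box, 7.71% the AP-1 site, and 45% the GC box. No motif was common to the 4 promoters. A match is a run of letters and not a site of binding. Only 157 of the 209 genes had a listed promoter, so that a check of motifs or GC content over the whole set is void and is not given.

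Among the most abundant members in CSS were *LRRN1*, *PPAP2A*, *EHF*, *USP54*, and *OPRK1*. *LRRN1*, which codes for a leucine-rich repeat membrane protein, had 218, 227, 141, and 121 TPM in CSS, 74.3, 71.2, 53.6, and 45.1 at 4 hours of EGF, and 88.8, 76.7, 51.8, and 35 at 4 hours of NRG-1. Its level was higher in batch 1 than in batch 2, and no 4-hour library reached any CSS library. *OPRK1*, the kappa opioid receptor gene, had 117, 116, 55.7, and 48.6 TPM in CSS, 22.3, 21.7, 15.6, and 13.7 at 4 hours of EGF, and 38.0, 33.0, 20.4, and 15.6 at 4 hours of NRG-1, with batch 1 above batch 2. *PPAP2A*, a lipid phosphatase gene, was at 152 ± 11.4 TPM in CSS, 75.3 ± 3.65 at 4 hours of EGF, and 74.9 ± 3.40 at 4 hours of NRG-1 (SD, n = 4), and *EHF*, an epithelial ETS factor gene, was at 45.4% and 48.6% of its CSS mean of 144 TPM. *KCNN2*, *RASEF*, *FOXO3*, *FAM111A*, *CAB39L*, and *RLN2* were also among the 12 most abundant, with CSS means from 63.1 to 77.1 TPM.

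Some members were above CSS at 1 hour, since the choice set no upper limit there, and the 3 that follow were picked after their values were seen. *USP54*, of the ubiquitin-specific peptidase family, had 117, 129, 130, and 110 TPM in CSS, 178, 194, 214, and 190 at 1 hour of EGF, and 44.02, 40.3, 60.5, and 46.5 at 4 hours of EGF. With EGF it was above every CSS library at 1 hour and below every one at 4 hours. With NRG-1 it had 146, 117, 171, and 114 TPM at 1 hour, which overlapped with CSS, and 61.9, 53.9, 67.7, and 45.0 at 4 hours, all below CSS. *PTPRR*, a tyrosine phosphatase gene, was at 233% and 150% of its CSS mean of 12.3 TPM at 1 hour of EGF and NRG-1 and at 54.7% and 53.5% at 4 hours. *BBC3*, which codes for the proapoptotic protein PUMA, was at 121% and 125% at 1 hour and 39.9% and 39.6% at 4 hours. Over all members, 83 of 209 were above the CSS mean at 1 hour of EGF and 15 at 1 hour of NRG-1, beside 6942 and 3490 of the 11668 genes.

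**Figure D2:**
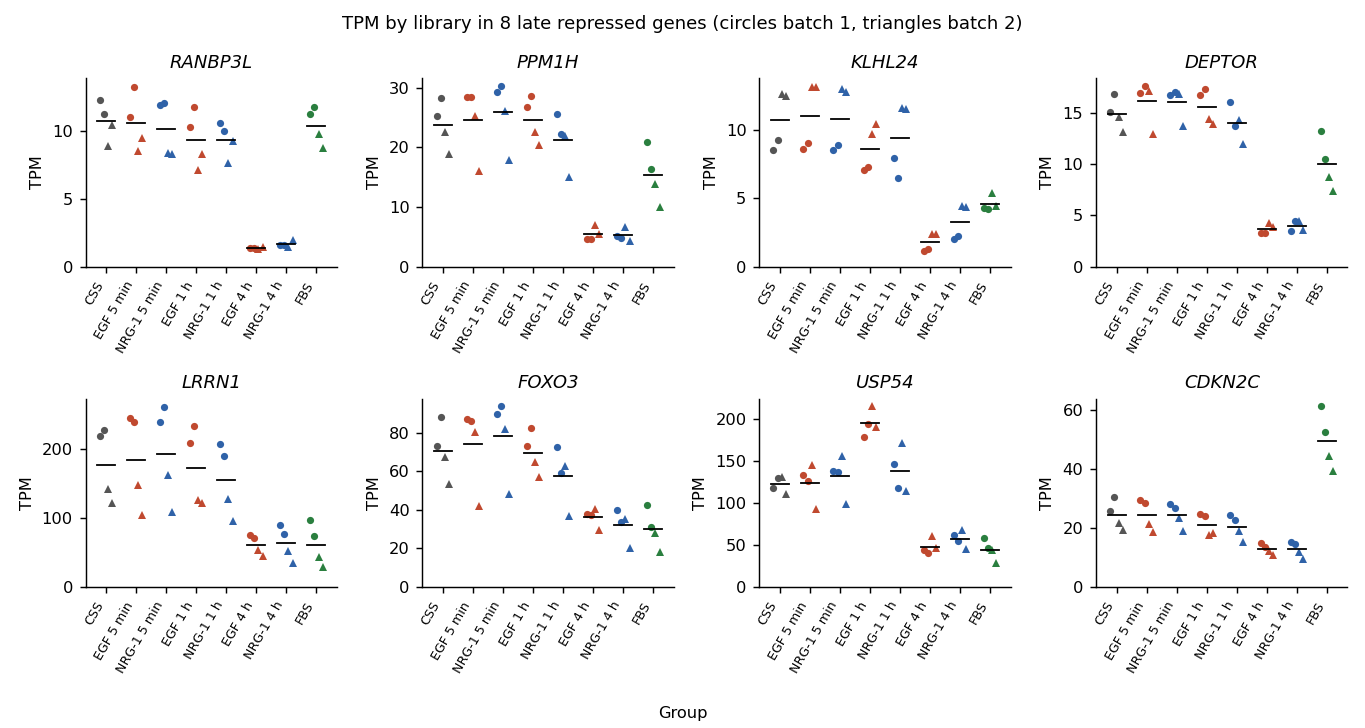
TPM of 8 late repressed genes in every library, by group, with circles for batch 1, triangles for batch 2, and a line at the mean of each group of 4. *USP54* reaches 178 to 214 TPM at 1 hour of EGF before it is low, and *CDKN2C* is highest in FBS at 39.5 to 61.4 TPM.

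Genes were next taken by role, in lists drawn up with earlier results of these data known. The 4-hour tests of these lists leave out the 209 genes, and so cover only the other genes of each list. The genes removed by symbol above were not left out, and any of them on a list is low at 4 hours by the same limits. By edgeR's quasi-likelihood test (adjusted P < 0.05), the FOXO-linked and quiescence list had 14 of 23 tested genes lower and 5 higher after EGF for 4 hours, while NRG-1 gave 11 and 5. Over all 16788 tested genes outside the 209, 23.6% were lower and 24.9% higher with EGF, and 20.0% and 21.9% with NRG-1. The median log2 fold change of the list was -0.18 with EGF and -0.17 with NRG-1, beside -0.02 and -0.01 over all those genes. Its late repressed members were *KLHL24*, *HBP1* (a repressor of cell cycle genes), and *FOXO3*. *HBP1* was at 39.5% and 52.5% of its CSS mean of 47.6 TPM at 4 hours of EGF and NRG-1. *FOXO3*, a FOXO factor gene, had 73.1, 88.2, 67.1, and 53.5 TPM in CSS, 37.7, 37.3, 40.5, and 29.4 at 4 hours of EGF, and 40.0, 33.7, 34.9, and 20.3 at 4 hours of NRG-1, with no overlap. Among the tested genes of the list, *TSC22D3* had a log2 fold change of -2.33 and *CDKN1B*, the cell cycle inhibitor p27, one of -0.77 at 4 hours of EGF, and *FOXO1* was higher (0.56).

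Outside the 209, the negative regulators of PI3K, AKT, and mTOR had 8 of 19 tested genes lower and 1 higher after EGF for 4 hours. *DEPTOR* and *GATSL3*, an arginine sensor of the mTOR pathway, were late repressed, and *GATSL3* was at 41.9% and 44.7% of its CSS mean of 11.4 TPM. *TSC1* (-0.69 on the log2 scale) was lower without meeting the limits, and *PHLPP2* was higher (0.95). Outside the 209, the prostate lineage transcription factors had 10 of 20 tested genes lower and 5 higher after EGF for 4 hours. *EHF* was among its late repressed members. Of 13 genes with HOX symbols and at least 2 TPM in CSS, 5 were late repressed, beside 1.79% of the 11668 genes. They were *HOXC4*, *HOXC5*, *HOXC6*, *HOXC9*, and the antisense RNA *HOXA11-AS*, and because *HOXC4*, *HOXC5*, and *HOXC6* share exons the 5 are not separate observations. The other genes with HOX symbols had 15 of 27 tested genes lower and 2 higher after EGF for 4 hours. *HOXC9* had 9.83, 9.98, 9.70, and 8.71 TPM in CSS, 3.49, 4.07, 4.13, and 3.81 at 4 hours of EGF, and 4.39, 4.47, 4.28, and 3.43 at 4 hours of NRG-1, with no overlap.

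Other lists held fewer members, and their counts again leave the 209 genes out. The nuclear receptor list, with 11 of 32 tested genes lower and 12 higher after EGF for 4 hours, gave among others *PPARA* (49.2% and 51.6% of CSS with EGF and NRG-1), a receptor for fatty acids. The Wnt list, with 11 of 43 tested genes lower and 18 higher after EGF for 4 hours, gave the R-spondin receptor *LGR4* (43.9% and 51.4%) and the ligand *WNT5A* (31.9% and 36.1%). The Hedgehog and cilium list, with 22 of 49 tested genes lower and 6 higher after EGF for 4 hours, gave *SUFU* (54.2% and 52.6%), an inhibitor of GLI factors. The p53 target list, with 18 of 31 tested genes lower and 7 higher after EGF for 4 hours, gave *BBC3*. The histone methylation list, with 16 of 57 tested genes lower and 14 higher after EGF for 4 hours, gave the methyltransferase *KMT2C* (52.4% and 51.8%). The MAP kinase cascade, with 10 of 46 tested genes lower and 16 higher after EGF for 4 hours, gave *MAP2K6* (47.6% and 48.3%) and *MAP3K3* (52.3% and 52.1%). The Notch list gave no member, with 3 of 25 tested genes lower and 15 higher after EGF for 4 hours. The autophagy list, with 12 of 44 tested genes lower and 9 higher after EGF for 4 hours, and the BMP and TGF-beta list, with 12 of 35 tested genes lower and 11 higher after EGF for 4 hours, also gave none.

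Members of receptor signaling, cell death, and the clock were picked after their values were seen. *JAK2*, a cytokine receptor kinase gene, was at 40.0% and 44.8% of CSS at 4 hours of EGF and NRG-1. *GAB1*, a docking protein gene downstream of EGFR, was at 39.6% and 46.8%, and *SOS1*, a RAS exchange factor gene, at 50.5% and 49.6%. *GHR*, the growth hormone receptor gene, was at 48.6% and 44.2%, and *IL1RAP*, an interleukin-1 coreceptor gene, at 36.7% and 39.2%. Besides *BBC3*, the cell death genes *DAPK1*, a death-associated kinase, and *APAF1*, the apoptosome scaffold, were at 18.2% and 27.3% and at 44.6% and 48.3%. The clock gene *ARNTL* was at 37.1% and 37.6% and the clock output factor *DBP* at 44.7% and 49.1%.

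By annotation, 205 of the 209 genes matched GENCODE v44 by symbol. Of these, 179 (87.3%) were protein coding and 20 (9.76%) long noncoding RNA genes, beside 94.2% and 3.97% of matched genes with at least 2 TPM in CSS. The protein-coding members had a median gene span of 78850 bases and a median canonical transcript of 4583 bases, beside 32880 and 3324 bases. Their transcripts held a median of 2397 bases outside the coding sequence, beside 1542. These are descriptions and were not tested.

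Antisense RNAs could be set beside the genes that name them. *TMPO-AS1* was at 52.6% and 54.4% of CSS at 4 hours of EGF and NRG-1, and *TMPO* at 94.9% and 93.6%. *TOB1-AS1* was at 46.6% and 54.7%, and *TOB1* at 85.1% and 79.3%. *HOXA11-AS* was at 16.8% and 31.5%, and *HOXA11* at 40.6% and 47.5% of a CSS mean of 0.757 TPM. In these 3 pairs, picked after their values were seen, the antisense RNA was the lower with both ligands. The choice itself held the antisense RNAs low at 4 hours with both ligands and set no such limit on their partners. Nothing is therefore read from the direction of the difference. *BDNF-AS* was at 44.5% and 52.8%, with *BDNF* at a CSS mean of only 0.04 TPM. Reads were counted by strand.

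FBS was then set against the 5-minute groups, none of which the choice used, to ask where the late repressed genes stand in full serum. Most were lower there. The log2 fold change of FBS against the mean of both 5-minute groups had a median of -0.39 over the 207 genes, beside -0.01 over all 16995. By edgeR's quasi-likelihood test with Benjamini-Hochberg adjustment, 159 of 207 passed (76.8%, beside 60.1% of all genes). Of these, 134 were lower (64.7%, beside 30.6%) and 25 higher (12.1%, beside 29.5%), and 48 did not pass. Every member had to reach 2 TPM in CSS, a medium like that of the 5-minute groups, and no such limit was set in FBS, where 41 of the 209 had means under 2 TPM. Among the 11636 tested genes with at least 2 TPM in CSS, 34.9% were lower in FBS and 34.9% higher. With a log2 fold change beyond 1 as well, 42 passed (beside 9.06%), 38 of them lower (3.87%) and 4 higher (5.18%). The 134 lower genes were lower in each batch alone, where 122 and 105 of them passed. The 25 higher genes were higher in each, where 23 and 18 passed. The fit over both batches had called these genes, so their agreement in each batch is not a separate check. On the TPM scale, all FBS libraries lay below all 5-minute libraries in 76 of the 209 genes (15.2% of the 11668) and above them in 10 (9.96%). The median of the 11668 genes in FBS was 88.3% of CSS in TPM, with 3719 above CSS, whereas the fold changes of the test are centered near 0. TPM adds up to the same total in every library, so it cannot show a change of all transcripts together, which was not tested. In limma on log2(TPM + 1), 160 members were lower and 16 higher.

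Of the 8 genes furthest below, *VWA2* had 0.29, 0.22, 0.35, and 0.33 TPM in FBS, against 2.84 ± 0.418 in the 8 libraries of the 5-minute groups (SD, log2 fold change -3.02, SE 0.07, adjusted P = 2.2e-22). *MID1*, a microtubule-associated ubiquitin ligase gene, had 1.22, 1.09, 0.76, and 0.54 TPM in FBS, against 5.38 ± 1.21 (-2.38, SE 0.08, adjusted P = 1.34e-20). *OPRK1* had 35.1, 27.2, 9.01, and 6.48 TPM in FBS, against 43.5 to 128 (-2.12, SE 0.12, adjusted P = 1.23e-14). In these genes and in *DEGS2*, a sphingolipid enzyme gene (-2.34), every FBS library was below every 5-minute library. *PCED1B* (-2.33), *HOXA11-AS* (-1.95), *DAPK1* (-1.93), and *FAXDC2* (-1.84) complete the 8. Also lower were *LRRN1* (-1.46), *USP54* (-1.33), *FOXO3* (-1.14), *KLHL24* (-0.998), *PPM1H* (-0.51), and *DEPTOR* (-0.48, SE 0.07, adjusted P = 2.11e-06). *RANBP3L*, the lowest at 4 hours among genes with at least 5 TPM in CSS, did not pass (0.23, SE 0.12, adjusted P = 0.0948).

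Among the 25 genes higher in FBS, *CDKN2C*, which codes for an inhibitor of CDK4 and CDK6, had 61.4, 52.5, 44.5, and 39.5 TPM in FBS, against 24.4 ± 4.37 in the 5-minute libraries (1.31, SE 0.04, adjusted P = 4.49e-20). *ESPL1*, the separase gene, had 10.03, 8.31, 8.17, and 5.6 TPM in FBS, against 4.13 ± 0.976 (1.19, SE 0.10, adjusted P = 1.99e-11). In both, and in *FAM105A* (1.12), every FBS library was above every 5-minute library. *TMPO-AS1* (1.01), *PPAP2A* (0.95), *EFCAB12* (0.94), *TMTC2* (0.87), and *CLDN8*, a claudin gene (0.80), complete the 8 furthest above. *PPAP2A* had 278, 260, 266, and 243 TPM in FBS, above every library of every other group. It belongs, with the potassium channel gene *KCNN2* (0.45), to the androgen-responsive list, of which 39 of 43 genes were higher in FBS and 1 lower, while outside the 209 it had 14 of 41 tested genes lower and 14 higher after EGF for 4 hours. *EHF* (0.77) and *TAOK3* (0.45) were also higher.

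**Figure D3:**
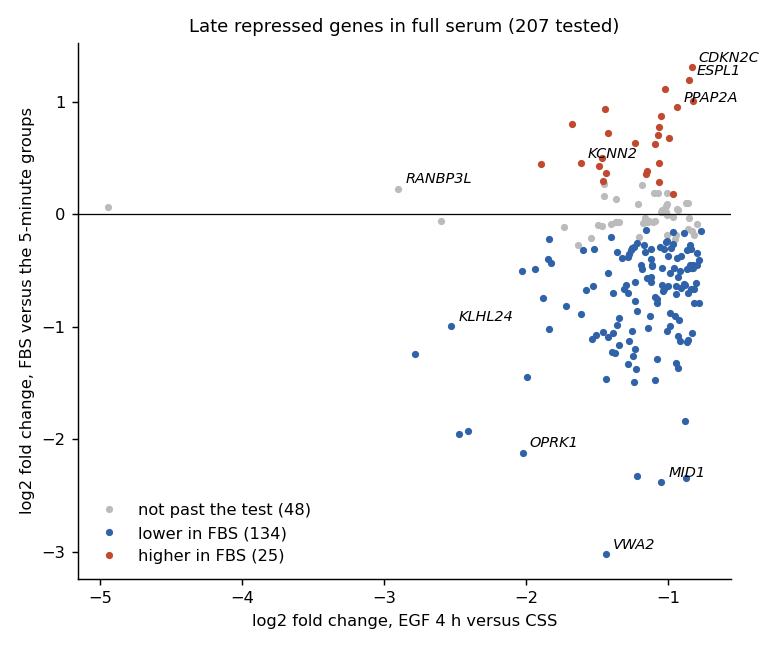
Log2 fold change of FBS against the 5-minute groups (vertical) and of EGF at 4 hours against CSS (horizontal) for the 207 tested genes. The horizontal position is low by choice. In FBS 134 genes were lower, 25 higher, and 48 did not pass, with *VWA2* lowest at -3.02 and *CDKN2C* highest at 1.31.

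Transcript length moved with this contrast. The 2847 protein-coding genes outside the 209 with a canonical transcript of at least 5000 bases took 7.43% ± 0.913 of the coding TPM in FBS, 8.72% ± 0.543 in CSS, 8.85% ± 0.985 after 5 minutes of EGF, and 9.07% ± 0.942 after 5 minutes of NRG-1 (SD, n = 4). Of those genes, 50.02% were lower in FBS, and of shorter genes outside the 209, 29.2%. Among the late repressed genes, 73.1% of the 78 long ones and 59.4% of the 101 shorter protein-coding ones were lower. In every group the library numbered 4 had the lowest share of long transcripts and the lowest summed TPM of the 209 genes. With all libraries numbered 4 left out, 131 genes were lower in FBS and 31 higher. The part of transcript length in the result was not tested.

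EGF was set against NRG-1 at 4 hours to ask whether the ligands left the genes at the same level. The libraries of both groups made the choice, which held both means under the same limit, while all genes are under no such limit. The shares below are therefore given side by side and nothing is read from their difference. Levels were lower with EGF in 170 of the 207 genes (184 in batch 1 and 136 in batch 2), beside 51.4% of all genes, with a median log2 fold change of -0.10, beside -0.01 over all genes. By edgeR's quasi-likelihood test 18 genes passed (8.7%, beside 1.66% of all genes), all lower with EGF (beside 0.412%). In edgeR 0 were higher (beside 1.25%), with 1 at an unadjusted P below 0.05, and in DESeq2 0 were higher. With the replicate number as a block, 28 passed, all lower with EGF. The 18 were lower with EGF in each batch, and 12 passed in batch 1 alone and 0 in batch 2 alone, where 22 of the 207 had an unadjusted P below 0.05. The count depended on single libraries. It was 2 without EGF 4 h replicate 1, 5 without EGF 4 h replicate 2, 7 without NRG-1 4 h replicate 3, and 5 without NRG-1 4 h replicate 4.

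Genes chosen in 1 batch and compared between the ligands in the other were free of that limit. Of 133 genes chosen in batch 2, 119 were lower with EGF in batch 1 (89.5%, beside 49.7% of all genes), with a median log2 fold change of -0.19, and 16 passed edgeR's test (beside 1.86%), all lower with EGF. Of 263 genes chosen in batch 1, 176 were lower with EGF in batch 2 (66.9%, beside 47.8%), with a median of -0.08. In edgeR 0 of these passed (beside 0.0483%), and 29 had an unadjusted P below 0.05. Genes of 1 sample are not independent replicates, and each batch held 2 libraries per group.

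The 5 genes with the largest difference were *HOXA11-AS*, *KLHL24*, *DAPK1*, *SWT1*, and *CREBRF*. *KLHL24*, whose TPM values are given above, differed by a log2 fold change of -0.87 (SE 0.11, edgeR adjusted P = 2.67e-05), by -0.75 in batch 1 and -0.94 in batch 2. Within each batch its EGF libraries were below its NRG-1 libraries. *HOXA11-AS* had 0.27, 0.47, 0.41, and 0.28 TPM with EGF and 0.88, 0.65, 0.74, and 0.41 with NRG-1 (-0.89, SE 0.19, adjusted P = 0.0123), and its groups overlapped. *DAPK1* had 0.64, 0.56, 1.19, and 0.96 TPM with EGF and 1.26, 1.31, 1.5, and 0.96 with NRG-1 (-0.63, SE 0.14, adjusted P = 0.0166), and its difference was -1.09 in batch 1 and -0.24 in batch 2. *CREBRF*, a regulator of CREB3, had 1.34, 1.54, 1.74, and 1.54 TPM with EGF and 1.91, 1.89, 2.58, and 2.33 with NRG-1 (-0.51, SE 0.11, adjusted P = 0.0123), without overlap. *SWT1*, an RNA endonuclease gene, differed by -0.53 on the log2 scale. The other 13 were *OPRK1*, *TNFSF4*, *NET1*, *SLC2A12*, *PARP8*, *CAB39L*, *TRIM68*, *MTUS1*, *STYK1*, *JDP2*, *LINC01003*, *LGR4*, and *HOXC6*, from -0.50 to -0.24. On the TPM scale all EGF libraries lay below all NRG-1 libraries in 10 of the 209 genes, beside 1.52% of the 11668.

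**Figure D4:**
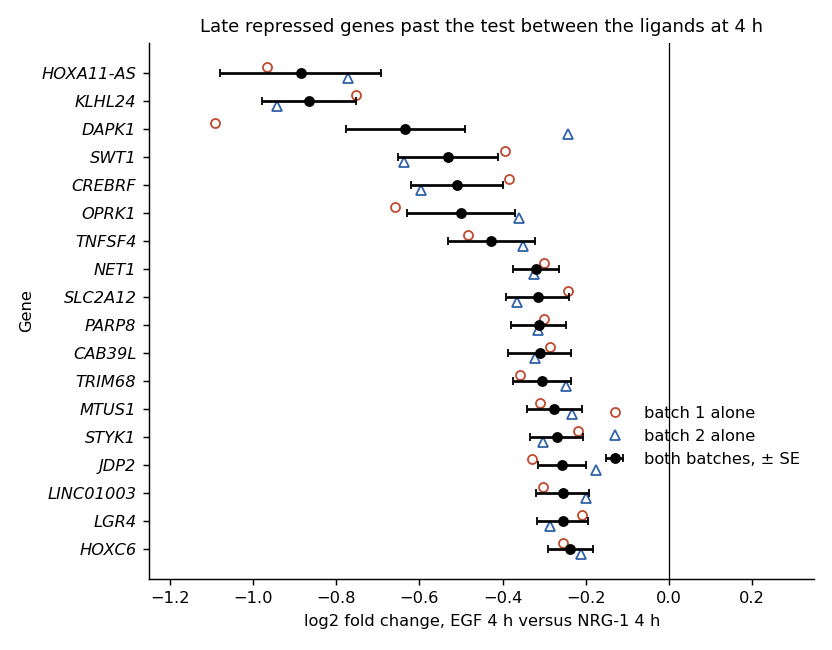
Log2 fold change of EGF against NRG-1 at 4 hours for the 18 late repressed genes that passed the test, with its standard error, and in batch 1 and batch 2 alone. Every point lies below 0, and *DAPK1* spreads from -1.09 to -0.24 between the batches.

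Last, the choice was repeated on the libraries of 1 batch, and the genes were tested in the other batch, with 2 libraries per group, to ask how far the falls at 4 hours carried over. The choice on batch 1 took 266 genes, and all 263 that could be tested in batch 2 were lower there than CSS with both ligands. Of these, 148 (56.3%, beside 2.85% of all genes) passed edgeR's quasi-likelihood test at a level under 0.55 of CSS with EGF, and 100 (38.0%, beside 1.86%) with NRG-1. Without the fold limit 225 (beside 8.73%) and 208 (beside 6.27%) passed. The choice on batch 2 took 134 genes. Of 133 tested in batch 1, 128 (96.2%, beside 5.53%) passed with EGF and 119 (89.5%, beside 3.98%) with NRG-1, and without the fold limit 133 (beside 24.4%) and 132 (beside 21.1%). For the genes chosen in batch 1, the median TPM with EGF was 42.0% of CSS in batch 1 and 51.0% in batch 2, and for those chosen in batch 2 it was 44.3% in batch 2 and 35.8% in batch 1. With NRG-1 the values were 47.2% and 52.6%, and 46.4% and 41.5%. The levels at 4 hours were thus closer to CSS in batch 2. All limits were met in both batches by 116 genes and in at least 1 batch by 284.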

How the data were processed

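Reads were trimmed by the authors (Trimmomatic 0.36), and RSEM with STAR 2.7.0f in stranded mode, on hg19, gave the expected counts and the TPM values they deposited for each gene. The expected counts were rounded here. Members were chosen on TPM, and the members and gene lists were chosen with earlier results of these data known. Groups came from the sample titles, and the replicates of batch 2 are numbered 3 and 4 here.

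The 16995 genes that reached 5 counts in 3 or more libraries entered 1 edgeR 4.0.16 quasi-likelihood model (R 4.3.3, TMM scaling, terms for group and batch, all 32 libraries), with Benjamini-Hochberg adjustment over these genes and a threshold of 0.05. The script was tested on simulated data. DESeq2 1.42.0, limma 3.58.1 on log2(TPM + 1) or log2(TPM + 0.1), other filters and scalings, a replicate block, single batches, and fits without single libraries were alternatives. The ligand test in the other batch and, for the comparison with CSS there, the block and the fits without single libraries, and everywhere the fits without all libraries numbered 4, were chosen after seeing the data. Same-numbered libraries share a batch by the labels and deviated together in 112 of 112 pairs (correlation of deviations from group means 0.133 to 0.571). Those means spanned both batches, so the shared batch alone can give such correlations. Pairing of libraries within a batch was not tested.

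Named genes were the 12 most abundant members in CSS, the 12 lowest at 4 hours with at least 5 TPM in CSS, the 8 with the largest change in each direction in FBS, up to 5 in each direction between the ligands, members on the lists of symbols, and the 2 genes on each side of each limit. Others were picked after their values were seen. A few genes that these rules name are not reported here. Promoters were matched by symbol to RefSeq, and gene lengths to GENCODE v44.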

Additional observations from a re-analysis of the deposited data

Results flagged for a closer look

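In 6 of 160 sets of 4 libraries (20 genes whose library values were examined, in 8 groups), 1 library stood apart from the other 3 by Dixon's criterion, where chance gives about 8. *KLHL24* was at 5.43 TPM (others 4.25 to 4.43) in FBS replicate 3. *DEPTOR* was at 12.9 TPM (others 16.9 to 17.6) in EGF 5 min replicate 4 and at 13.7 TPM (others 16.7 to 17.0) in NRG-1 5 min replicate 4. *HOXA11-AS* was at 1.5 TPM (others 2.54 to 2.68) in NRG-1 5 min replicate 4. *DEGS2* was at 0.24 TPM (others 0.47 to 0.49) in FBS replicate 4 and at 2.34 TPM (others 2.15 to 2.17) in EGF 1 h replicate 3.

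Between the ligands at 4 hours, 18 late repressed genes passed edgeR's quasi-likelihood test, in libraries that had also made the choice. Of these, 0 passed in batch 2 alone, and the count was 2 to 18 with single libraries left out. The largest log2 fold changes of EGF against NRG-1 were -0.89 for *HOXA11-AS*, -0.87 for *KLHL24*, -0.63 for *DAPK1*, -0.53 for *SWT1*, and -0.51 for *CREBRF*.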

How the results depend on the processing

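The number of late repressed genes was 136 with a 4-hour limit of 0.5, 134 with a 1-hour limit of 0.85, 127 with at least 5 TPM in CSS, 266 in batch 1 alone, 134 in batch 2 alone, and 167 to 225 with single libraries left out (167 without CSS replicate 2). Ratios of TMM-scaled CPM gave 151, of which 149 were among the 209, and leaving out all libraries numbered 4 gave 207, of which 188 were. In FBS the count of 159 stayed between 123 and 176 in every setting run except a log2 fold change beyond 1, which left 42, and was 146 to 159 with single libraries left out. The 16 genes named for FBS kept their direction and passed in all 432 refits. Between the ligands the count of 18 was 3 with no batch term, 8 in a fit of the groups compared alone, 0 in batch 2 alone, 0 for the genes chosen in batch 1 and tested in batch 2, 2 in limma with a pseudocount of 1, 3 with 0.1, 3 with no filter, 0 in edgeR with a log2 fold change beyond 1 (56 members had an unadjusted P below 0.05, and DESeq2 called 19 with no fold limit), and 2 to 18 with single libraries left out. The 5 genes named there kept their direction in 100 refits and lost the threshold in 37. The cause was not tested. In the other batch, dropping the fold limit gave 225 and 208 for the genes chosen in batch 1. With single libraries left out, the choice in batch 1 gave 135 to 141 for EGF and 82 to 125 for NRG-1, and the choice in batch 2 gave 125 to 129 and 115 to 122.

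The replicate block raised the ligand count to 28 and moved no other count by over 1.5 times (169 in FBS, and 152, 110, 128, and 119 in the other batch). Genes with few counts, such as *HOXA11-AS*, are limited by depth.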
